A study of Mus musculus with 11 samples.

Results

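Testis RNA of 5 wild type mice, taken at postnatal day 21, was examined for how far the first wave of spermatogenesis had advanced in each animal and for which genes moved with it. The 5 libraries are the wild type members of a series of 11, and the Rfx2-/- testes of that series were not used. The mice were of a mixed C57BL/6, 129/Sv and FVB/N background, were labelled wild type with no treatment given, and contributed 1 library of decapsulated testis RNA each. All had the same recorded age, so any order among them had to come from the RNA. The mice were ordered by a score, the mean log2 CPM (read counts scaled to library size, with TMM factors) of Acrv1, Spaca1, Spaca3, Zpbp, Zpbp2, Izumo1, Acr and Catsper3, which are genes of the acrosome and sperm surface. Because the order was taken from the same counts that it is used to read, the changes along it are given as a description and without p-values. Each place in the order holds 1 mouse, so no place has a replicate error, and only the scatter of the 5 mice about a line is available as an error of a slope.

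In the mouse, the first germ cells enter spermatogenesis together shortly after birth and advance as a nearly synchronous wave through mitotic spermatogonia, the long meiotic prophase of spermatocytes, and the haploid spermatids. Round spermatids are the first cells to build an acrosome, the enzyme-filled vesicle that caps the sperm nucleus, and a flagellum. At the third week after birth the leading cells are passing from late meiosis into the round spermatid stage. Many genes of these steps are transcribed only in germ cells, and RFX2 and CREM are transcription factors that act on spermatid genes.

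The order of the mice was WT5, WT3, WT4, WT2 and WT1, and values for the 5 mice are given in that order throughout. Their scores were 1.60, 2.64, 3.34, 5.07 and 6.29 on the log2 scale. The distance from WT5 to WT1 was 4.69 ± 0.94 log2 units (SE over the 8 genes). All 8 score genes were higher at each of the 4 steps, but they did not move alike. Acrv1, which encodes an acrosomal vesicle protein (gene at chr9:36693220-36698843, + strand, GRCm38), had CPM values of 0.241, 1.46, 2.62, 21.3 and 63.1. Spaca3, a lysozyme-like acrosome protein, had 0.172, 0.807, 1.33, 13.1 and 50.3 CPM. Both were close to the detection floor of 3 counts per library (0.0932 to 0.111 CPM) in WT5 and reached more than 50 CPM only in WT1. By contrast, Zpbp2, a zona pellucida binding protein, had 67.6, 94.6, 239, 245 and 289 CPM, and Acr, the acrosomal protease acrosin, had 38.4, 50.1, 108, 121 and 156 CPM. These 2 genes were already abundant in WT5 and took their largest step between WT3 and WT4, as did Zpbp, whereas the other 5 took it between WT4 and WT2. The CPM of Catsper3, a subunit of the sperm calcium channel, differed between WT3 and WT4 by less than their counting error could resolve, at 14 and 13 counts.

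**Figure D1:**
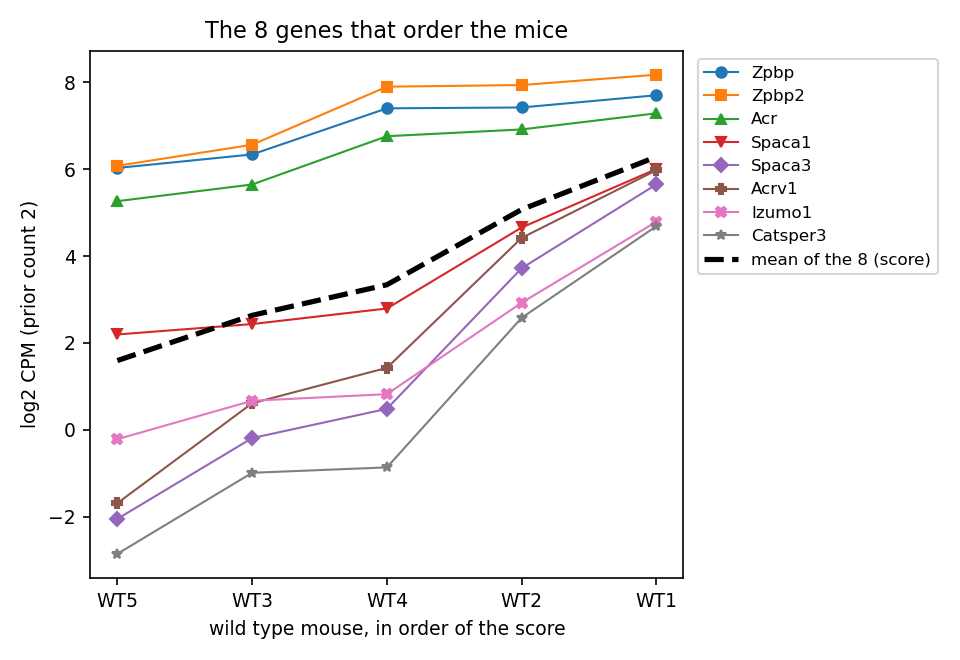
Level of the 8 score genes in each wild type mouse (x axis, in order of the score) on the log2 CPM scale (y axis, prior count 2), with 1 library per point and the mean of the 8 genes as a dashed line. Zpbp, Zpbp2 and Acr start high and step up between WT3 and WT4, while Acrv1, Spaca3 and Catsper3 start near the detection floor and climb most between WT4 and WT2.

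The libraries were similar in depth, with 26925157 to 29769483 counts, and the first principal component of the counted genes held 84.3% of the variance and placed the mice in the same order as the score. Total counts did not follow the order. The share of counts on mitochondrial genes was 3.06% in WT5 and 1.90% to 2.40% in the other 4 mice. Of 23074 genes in the table, 14643 had a mean of at least 1 CPM over the 5 mice and were counted. A gene was called rising if it was higher at all 4 steps and at least 2-fold higher in WT1 than in WT5, falling by the mirror of that rule, and constant if its highest and lowest mouse differed by at most 0.25 log2 units. By these rules 1084 genes were rising (7.4% of those counted), 345 were falling (2.36%), 1203 were constant (8.22%), and 12011 met none of them. With total counts in place of TMM, 991 were rising and 597 falling. Rising genes moved much further than falling genes. The median rise was 2.09 log2 units with a maximum of 9.88, and 582 rose by at least 4-fold. The median of the falling genes was -1.18 log2 units, and 6 fell by at least 4-fold. Because RNA was taken from whole testes, fewer cells of a type and less RNA per cell cannot be told apart.

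The rising genes with the steepest slopes were almost silent in WT5. Spata31, a testis-specific spermatogenesis gene, had 0, 0.776, 1.18, 14.8 and 65.4 CPM, at least 633-fold higher in WT1 than the floor of WT5. Ropn1, a protein of the fibrous sheath of the sperm tail, had 0.0345, 0.963, 1.26, 21.2 and 71.0 CPM, and its 1 read in WT5 leaves the WT1 to WT5 ratio between 370 and 81460 by counting error alone. Both genes were therefore low in 3 mice and abundant in 2. Scp2d1, Iqcf4, Ccdc54, 1700067P10Rik, Hyal5, Atp6v1e2 and 1700019M22Rik also had no read in WT5, and they were at least 307-, 220-, 345-, 257-, 307-, 374- and 263-fold higher in WT1 than its floor. Hyal5 encodes a sperm hyaluronidase, and Atp6v1e2 a testis form of a proton pump subunit of the kind that acidifies the acrosome. The remaining gene of the 10, Allc, had 0.172, 1.21, 2.88, 29.9 and 111 CPM. In all, 35 rising genes had no read in WT5 and 121 had 3 reads or fewer. A total of 162 rising genes were below 1 CPM in each of WT5, WT3 and WT4 and entered the counted genes only through WT2 and WT1, so their direction was set by that filter, and 922 rising genes did not depend on it.

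The rising genes were grouped by the step at which they moved most. For 588 of them (54.2%) the largest step was between WT3 and WT4, and for 291 (26.8%) it was between WT4 and WT2. Of the later group 125 were below 1 CPM in each of WT5, WT3 and WT4 and passed the filter only through WT2 and WT1, as did 2 of the earlier group. Genes of the earlier step had median CPM values of 29.2, 34.0, 70.1, 76.6 and 99.2 and a median rise of 1.69 log2 units, so they were well expressed in every mouse and changed little between WT4 and WT2. Genes of the later step had medians of 0.207, 0.807, 1.22, 8.14 and 27.2 CPM and a median rise of 6.21 log2 units, and without those 125 genes the other 166 had 0.568, 1.55, 2.36, 15.6 and 46.0 CPM. The most abundant gene of the earlier step was Phf7, a PHD finger protein of the male germ line, at 796, 835, 1767, 1836 and 2217 CPM, followed by Fhl4, a testis LIM domain protein, at 565, 673, 1839, 1859 and 2239 CPM. The most abundant of the later step were Spata20 at 4.03, 8.01, 23.8, 88.4 and 262 CPM and Akap3, an anchoring protein of the fibrous sheath, at 6.58, 11.7, 19.6, 88.5 and 247 CPM. These 4 genes were picked for their abundance after the values were seen. Only 42 rising genes moved most between WT5 and WT3, although the score differed by 1.04 between those mice, more than the 0.70 between WT3 and WT4. WT5 and WT3 were also the pair of neighbours with the fewest genes apart by 2-fold, 357 higher and 11 lower in WT3, against 868 higher and 403 lower in WT4 than in WT3.

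**Figure D2:**
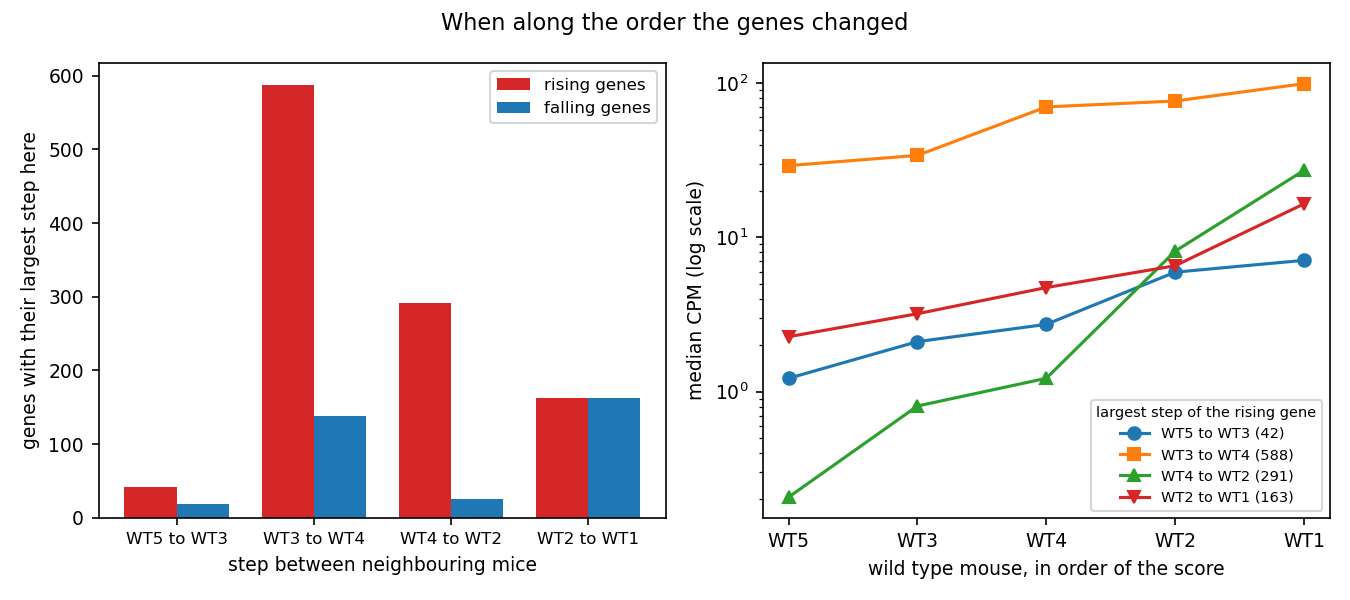
Left, number of rising (red) and falling (blue) genes whose largest step lay between each pair of neighbouring mice; right, median CPM (log axis) in each mouse of the rising genes grouped by that step, with group sizes in brackets. Rising genes peak at the WT3 to WT4 step (588 genes) with a high median level, and the 291 genes of the next step start near 0.2 CPM, whereas falling genes moved most either between WT3 and WT4 (138) or between WT2 and WT1 (162).

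Genes of the acrosome outside the score followed it. Of 29 such genes, 19 were rising, against 7.4% of all counted genes, and none falling, against 2.36%. Their median difference between WT1 and WT5 was 5.51 log2 units, against -0.08 over all counted genes. All 29 were higher in WT1 than in WT5, as were 6767 of the 14643 counted genes. The rising Spaca5, with 0.0345, 0.0932 and 0.295 CPM in WT5, WT3 and WT4, passed the filter only through WT2 and WT1. Tmco5, which had the steepest slope of this list, had 0.103, 0.963, 1.51, 18.3 and 58.4 CPM. Ccdc136, the most abundant member and a protein required for acrosome formation, had 376, 455, 869, 854 and 1079 CPM and was not called because WT2 was slightly below WT4. Gopc, a Golgi protein needed for the fusion of acrosomal vesicles, had the lowest slope, with 63.7, 69.4, 87.0, 74.9 and 73.6 CPM, and thus ranged over far less than the acrosomal cargo genes. Of the 19 rising members, 6 moved most between WT3 and WT4 and 11 between WT4 and WT2, so the list held both groups. The early movers included Acrbp, a proacrosin binding protein, at 55.1, 72.1, 174, 185 and 237 CPM, and the late movers included Spam1, a sperm hyaluronidase, at 0.172, 0.714, 1.07, 13.7 and 46.6 CPM.

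In the flagellum, axoneme genes moved mainly between WT3 and WT4, and genes of the accessory structures moved at either of the middle steps. All 31 counted axoneme genes had a slope above 0, as did 6769 of the 14643 counted genes. Of the 31, 10 were rising, against 7.4% of all counted genes, and 9 of these moved most between WT3 and WT4. Dnah8, an outer arm dynein heavy chain and the most abundant axoneme gene, had 895, 1263, 1861, 1649 and 2252 CPM. Dnah7b, an inner arm heavy chain with the lowest slope of the list, had 119, 155, 193, 180 and 201 CPM. These genes were thus about as high in WT4 as in WT2, and the median axoneme gene stood 1.26, 1.21 and 1.54 log2 units above WT5 in WT4, WT2 and WT1. Spag6, a protein of the central pair apparatus, was the exception in this list, with 1.76, 3.20, 4.84, 32.5 and 80.5 CPM and its largest step between WT4 and WT2. Among the outer dense fibre, fibrous sheath and mid-piece genes, 14 of 20 were rising and none falling. Over all counted genes 7.4% were rising and 2.36% falling. The median difference of the list was 5.83 log2 units. Akap4, the main anchoring protein of the fibrous sheath and an X-linked gene, had 0.586, 2.42, 2.88, 43.4 and 174 CPM. Odf2, an outer dense fibre protein that is also a centriole component in other cells, had 450, 538, 1092, 1130 and 1536 CPM, and Odf4, with the lowest slope of the list, had 59.3, 78.3, 148, 157 and 182 CPM. In this list 5 rising genes moved most between WT3 and WT4, 8 between WT4 and WT2, and 1 between WT2 and WT1.

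Ion channel genes of the sperm tail showed a similar division within a single complex. Catsper2, which encodes a pore subunit of the CatSper calcium channel, had 69.4, 96.1, 202, 209 and 278 CPM. Catsper4, another pore subunit, had 0.0689, 0.839, 1.33, 13.0 and 45.2 CPM, and Catsper1 had 0.207, 1.09, 1.51, 13.4 and 47.1 CPM. The transcripts of these pore subunits thus differed widely in CPM in WT5 and came closer to each other toward WT1. CPM is not scaled by gene length, and no protein was measured. Of 12 counted channel genes, 4 were rising, against 7.4% of all counted genes. All 12 had a slope above 0, as did 6769 of the 14643 counted genes. Hvcn1, the proton channel, had the lowest slope and 22.7, 26.6, 28.4, 29.3 and 32.8 CPM.

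The testis-specific serine kinases, which phosphorylate proteins of the elongating spermatid, were late. Of 6 kinases 4 were rising, against 7.4% of all counted genes, and 3 of the 4 took their largest step between WT4 and WT2. Tssk1 had 3.10, 4.53, 9.53, 31.2 and 81.6 CPM, Tssk2 had 0.517, 1.40, 1.88, 13.5 and 66.1 CPM, and Tssk4 had 0.345, 0.870, 1.88, 11.7 and 34.9 CPM. Tssk3 had 0.413, 0.745, 1.44, 5.38 and 20.9 CPM and moved most between WT2 and WT1. The other 2, Tssk5 and Tssk6, were highest in WT1 at 11.6 and 4.23 CPM but were lower in WT4 than in WT3 and were not called.

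Transcripts for the replacement of histones were highest in the last mouse for all 7 genes counted. All 7 were higher in WT1 than in WT5, as were 6767 of the 14643 counted genes. Tnp1, which encodes the first transition protein, had 0.276, 0.559, 0.0739, 4.46 and 44.2 CPM. Tnp2 had 0.413, 0.963, 1.74, 5.13 and 36.9 CPM and was rising. The protamine genes Prm1 and Prm2 had 22.3 and 35.9 CPM in WT1 and at most 1.52 and 2.05 CPM in the other 4 mice. WT1 was therefore the only mouse in which these transition protein and protamine transcripts were all above 20 CPM. Hils1, a spermatid linker histone, appeared earlier, with 0.379, 1.99, 1.66, 19.6 and 73.1 CPM, and H1fnt, a testis H1 variant, had 0.0345, 0.0932, 0, 2.90 and 25.8 CPM. Prm3 was rising from 0 to 9.58 CPM, at least 92.7-fold above the floor of WT5. Tnp1 and H1fnt were below 1 CPM in each of WT5, WT3 and WT4 and passed the filter only through WT2 and WT1. Their late place was thus largely set by that filter. Of the 7 genes, 2 were rising, against 7.4% of all counted genes. The other 5 were lower in WT4 than in WT3, at 20 counts or fewer for Tnp1, Prm1, Prm2 and H1fnt.

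Known regulators of the haploid program moved by unequal amounts. Rfx2 (chr17:56775897-56831013, - strand, GRCm38) was rising, with 209, 238, 388, 400 and 480 CPM, a slope of 0.25 ± 0.06 log2 CPM per score unit (SE, n = 5 mice). It was present in every mouse and changed most between WT3 and WT4. Crem had 68.9, 76.4, 134, 143 and 165 CPM and was rising with a slope of 0.27 ± 0.07. Gtf2a1l, a germ cell form of a general transcription factor, had 57.3, 65.3, 156, 173 and 221 CPM, and Papolb, a testis poly(A) polymerase, had 124, 164, 401, 424 and 545 CPM. Of the 14 regulators these 4 were rising, against 7.4% of all counted genes, and all 4 took their largest step between WT3 and WT4. Taf7l, an X-linked germ cell TAF, was the only falling member of the 14, with 218, 204, 144, 118 and 86.9 CPM. Fhl5, a coactivator of CREM, was late and uncalled, with 0.0345, 0.373, 0.185, 4.14 and 23.3 CPM, and Sox5 had 5.41, 6.65, 6.50, 17.8 and 53.8 CPM. Sox30 had 47.7, 48.4, 74.2, 70.7 and 92.9 CPM, Tbpl1 had 113, 130, 253, 249 and 272 CPM, and Brdt had 221, 233, 390, 361 and 369 CPM. These 3 were about as high in WT2 as in WT4 and were not called. Kdm3a had 399, 384, 518, 460 and 461 CPM, and Brwd1 had 198, 214, 174, 149 and 151 CPM. Other Rfx genes did not all accompany Rfx2. Rfx8 was rising with 28.3, 37.5, 93.5, 97.5 and 110 CPM, Rfx4 had 45.9, 51.9, 88.9, 84.2 and 105 CPM, and Rfx1 had 21.1 CPM in WT4, 27.5 in WT5 and 64.7 in WT1. Rfx5 was constant at 58.6, 64.7, 68.7, 61.8 and 60.1 CPM, Rfx3 had 16.1 to 25.0 CPM, Rfx7 had 72.2 to 107 CPM, and Rfx6 was below the level required to be counted.

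The promoters of the rising genes were searched for the X-box, the palindromic motif bound by RFX proteins, because Rfx2 itself was among them. RefSeq promoter windows (GRCm38.p6, 250 bases before to 50 after the start) were matched to 11390 counted genes, 825 of them rising. The full X-box, GTTNCCNNGGNAAC on either strand, was found for 2.06% of rising genes, 0 of 274 falling genes, 0.418% of constant genes, and 0.685% of all counted genes. A shorter core, GTTGCCNNGG (the first 10 letters of the X-box with G at the first open base, on either strand), which part of the full matches also contain, was found for 8.48% of rising, 0.365% of falling, 3.34% of constant and 3.44% of all genes. Of the 17 rising genes with a full match, 13 took their largest step between WT3 and WT4, where 54.2% of all rising genes did. The share with a full match was 2.86% of the rising genes that moved most there, 0.459% of those that moved most between WT4 and WT2, and 2.42% of those that moved most between WT2 and WT1. The 6 most abundant of the 17 are shown here with 8 bases on each side and the X-box in capitals, since they carry the motif in the form in which it was counted.
1700010I14Rik: tatttactGTTTCCATGGCAACtgcagctt
Thop1: ggtgttagGTTTCCATGGAAACagcatcct
Cfap298: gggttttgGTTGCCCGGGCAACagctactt
Morn4: tgctcgcgGTTGCCTAGGTAACagccaatg
Ssmem1: ccgcgatcGTTGCCAGGGGAACgccctcgg
Rab3ip: ccagagtgGTTCCCAGGGAAACcgctgtag

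These stretches lie at chr17:8988300-8988329 (+), chr10:81069870-81069899 (+), chr16:90935016-90935045 (-), chr19:42086377-42086406 (-), chr6:30509847-30509876 (+) and chr10:116950615-116950644 (-), each written along the strand of its gene. The motif of 1700010I14Rik began 25 bases before the start, that of Morn4 28 bases before it, and that of Ssmem1 6 bases after it. All 6 genes took their largest step between WT3 and WT4, but they were picked for abundance. Rising genes of that step were also the more abundant, with a median mean CPM of 62.7. It was 7.66 for the WT4 to WT2 step and 7.29 for the WT2 to WT1 step. Of the 17 genes, 1 moved most between WT4 and WT2 and 3 between WT2 and WT1. The gene 1700010I14Rik had 190, 239, 498, 516 and 619 CPM, Cfap298, a cilia and flagella associated protein, had 95.4, 102, 179, 184 and 207 CPM, and Ssmem1 had 40.8, 56.7, 137, 145 and 178 CPM. A match is a description of these letters and not of binding.

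The cAMP response element, TGACGTCA on either strand, to which CREM binds, was found for 2.30% of rising genes, 1.09% of falling genes, 4.28% of constant genes and 3.36% of all counted genes. Among the score genes it was found in Izumo1, which encodes the sperm protein that binds the egg and had 0.792, 1.52, 1.70, 7.54 and 27.7 CPM. Its promoter is shown with the element, 96 to 89 bases before the start, in capitals (chr7:45621561-45621860, + strand).
Izumo1: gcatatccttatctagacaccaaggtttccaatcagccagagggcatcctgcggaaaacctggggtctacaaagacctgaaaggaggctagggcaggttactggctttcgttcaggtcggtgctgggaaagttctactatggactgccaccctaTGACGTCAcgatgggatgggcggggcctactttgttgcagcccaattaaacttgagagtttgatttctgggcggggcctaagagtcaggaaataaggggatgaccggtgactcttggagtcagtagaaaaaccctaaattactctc

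The median gene of the pachytene spermatocyte stepped up between WT3 and WT4 and changed little after that. Of 18 counted, 2 were rising, a share near the 7.4% of all counted genes, and none was falling. All 18 had a slope above 0, as did 6769 of the 14643 counted genes. The rising members were Pgk2, with its largest step between WT3 and WT4, and Spag6, with its largest step between WT4 and WT2. The median stood 0.06, 0.90, 0.94 and 1.10 log2 units above WT5 in WT3, WT4, WT2 and WT1. Ldhc, the germ cell lactate dehydrogenase, had 1324, 1392, 2882, 2854 and 3177 CPM. Mybl1, the A-MYB factor of early pachytene cells, had the lowest slope of the list, with 127, 132, 197, 153 and 142 CPM, and was highest in WT4. Among the genes of the meiotic divisions 2 of 15 were rising and 1 was falling, shares based on few genes and near the 7.4% and 2.36% of all counted genes. Ccna1, the cyclin of the first meiotic division, had 25.3, 41.8, 123, 123 and 160 CPM, and Nek2, a centrosomal kinase and the most abundant of the list, had 227, 241, 385, 365 and 383 CPM. Ccnb3, an X-linked cyclin of meiotic prophase, was falling with 51.9, 48.0, 41.1, 23.9 and 17.6 CPM. Their median stood 0.06, 0.42, 0.42 and 0.41 log2 units above WT5 in WT3, WT4, WT2 and WT1.

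**Figure D3:**
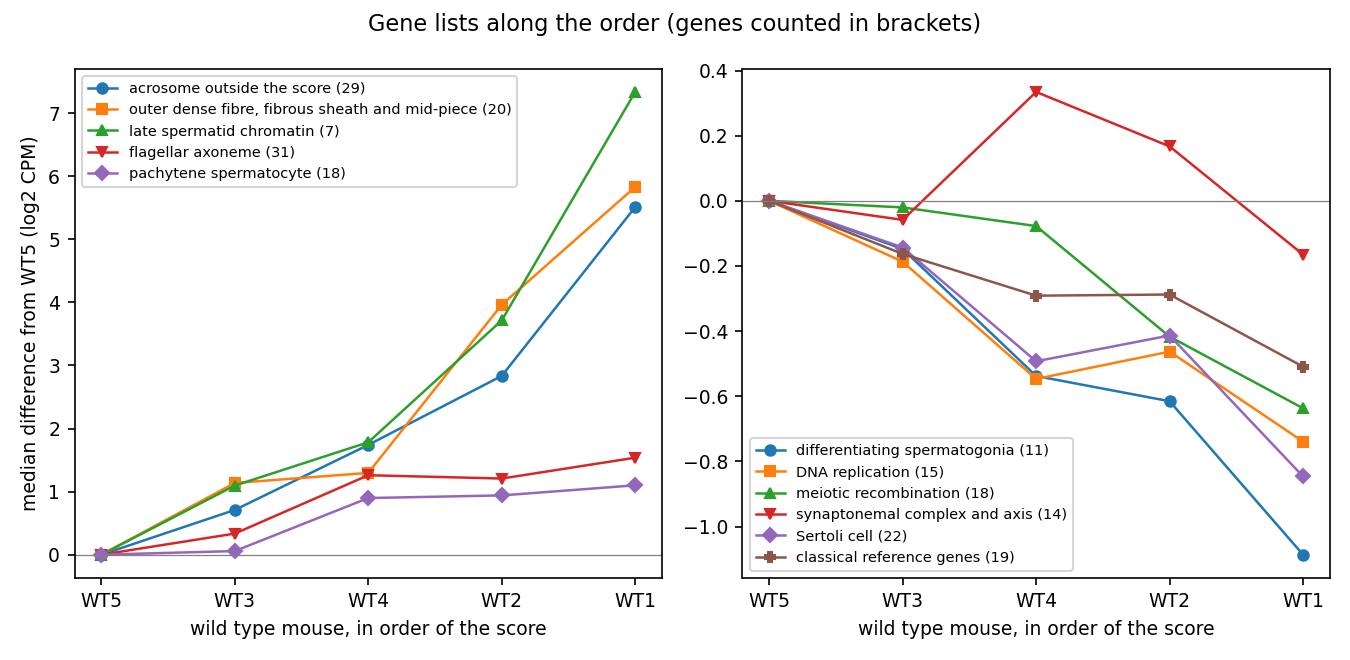
Median difference from WT5 (log2 CPM, y axis) over the counted genes of each list, by mouse in order of the score (x axis), with gene numbers in brackets and different y scales in the panels. Left, late structures of the spermatid climb to 5.51 to 7.34 in WT1 while axoneme and pachytene genes are level from WT4 to WT2; right, differentiating spermatogonial, replication and Sertoli cell medians go down to between -0.74 and -1.09, and synaptonemal complex genes peak in WT4 at 0.33.

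Genes of early meiotic prophase did not move as a block. Of 18 recombination genes 3 were falling, against 2.36% of all counted genes, and none was rising. In WT1, 14 of the 18 were lower than in WT5, as were 7876 of the 14643 counted genes (53.8%). Tex11, an X-linked crossover gene, had 122, 114, 85.9, 68.2 and 42.5 CPM. Dmc1, the meiotic strand exchange protein, had 94.9, 93.8, 80.2, 57.2 and 42.5 CPM. Tex15, the most abundant of the list, had 455, 485, 297, 206 and 186 CPM and was not called because WT3 was above WT5. All 3 were lowest in WT1. Prdm9, which marks the sites of recombination, had 39.8, 43.9, 26.3, 19.5 and 16.5 CPM, whereas Psmc3ip, a partner of DMC1, had 77.4, 78.8, 131, 125 and 124 CPM. Of 14 genes of the synaptonemal complex and chromosome axis, 1 was falling, 8 were highest in WT4, and 6 were higher in WT1 than in WT5. Over all 14643 counted genes, 2.36% were falling, 2275 were highest in WT4, and 6767 were higher in WT1 than in WT5. Sycp2 had 807, 871, 1154, 944 and 819 CPM, and Sycp1, the transverse filament protein, had 650, 610, 899, 748 and 582 CPM. Rad21l, an axis cohesin, was the falling member, with 27.9, 27.2, 17.7, 14.2 and 9.47 CPM, and Syce1 had the highest slope, with 196, 207, 353, 344 and 394 CPM.

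Several transcripts of the mitotic germ cells were falling. Of 11 counted genes of differentiating spermatogonia 5 were falling and none rising, against 2.36% falling over all counted genes. Stra8, the retinoic acid target that marks entry into meiosis, had 115, 97.6, 56.6, 48.5 and 36.3 CPM. Dmrt1, a repressor of that entry, had 166, 139, 114, 103 and 72.0 CPM. Ccnd2, Rhox13 and Uchl1 were the other falling members. Dmrtb1, which acts at the switch from mitosis to meiosis, was the only one of the 11 higher in WT1 than in WT5, with 179, 225, 571, 542 and 675 CPM, and Dazl, an RNA binding protein and the most abundant of the list, had 730, 676, 800, 622 and 399 CPM. Against the same 2.36%, 2 of 13 genes of undifferentiated spermatogonia were falling, Lin28a and Foxo1, and 1, Etv5, was constant. Sall4 had 33.4, 33.9, 18.4, 16.6 and 11.8 CPM, and Id4 had 54.4, 49.4, 71.5, 73.5 and 69.2 CPM, so the list did not move as a block. Of 15 replication genes 3 were falling, against 2.36% of all counted genes, namely Mcm5, Mcm4 and the X-linked Pola1, the last with 21.3, 17.8, 13.5, 12.6 and 7.35 CPM. Mcm7, with the highest slope of that list, had 156, 143, 179, 197 and 180 CPM.

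Most transcripts of Sertoli, myoid, endothelial and macrophage lists were lower in WT1 than in WT5. All 22 counted Sertoli cell genes were lower in WT1 than in WT5, or equal to within 0.01 log2 units in the case of Trf. Their median difference was -0.85 log2 units, and 53.8% of all counted genes were lower in WT1. Of these, 3 were falling, against 2.36% of all counted genes. Gdnf, the growth factor for spermatogonial stem cells, had 6.55, 5.96, 3.29, 3.19 and 2.76 CPM, and Kitl, the ligand of the KIT receptor, had 156, 128, 102, 95.5 and 75.8 CPM. Clu, the most abundant, had 2956, 2588, 2256, 2316 and 1861 CPM. None of the counted genes of peritubular myoid cells (10), endothelium (11) or macrophages (12) was rising or falling, where 2.36% of all counted genes were falling. They were lower in WT1 than in WT5 in 8 of 10, 11 of 11 and 10 of 12 cases, against 53.8% of all counted genes. Their medians were -0.74, -0.54 and -0.50 log2 units. Endothelial genes were lowest in WT4 in 10 of 11 cases and macrophage genes in 9 of 12, against 2030 of the 14643 counted genes. WT4 was thus low in both lists whatever its place in the order. Cdh5, the most abundant endothelial gene, had 32.7, 29.9, 15.6, 19.6 and 13.8 CPM, and Mrc1, a macrophage receptor, had 56.1, 60.4, 36.8, 49.4 and 43.2 CPM. The macrophage marker Aif1 departed from its list, with 2.86, 2.48, 2.47, 10.4 and 43.7 CPM. Acta2, the smooth muscle actin of myoid cells, had 296, 259, 138, 188 and 119 CPM. Actg2, with the highest slope of the myoid list, went the other way, with 5.93, 6.74, 4.51, 10.3 and 31.6 CPM.

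Leydig cell genes held 1 rising member of 14, a share near the 7.4% of all counted genes, and no falling one. Hsd3b6, the steroid dehydrogenase of adult type Leydig cells, was rising with 20.7, 23.8, 34.6, 54.2 and 63.0 CPM. Cyp17a1, the steroid lyase, had 12.6, 33.4, 6.83, 67.8 and 69.6 CPM, and Star, the cholesterol carrier, had 14.3, 47.5, 15.8, 84.7 and 25.0 CPM. Both were low in WT4 and WT5 and varied by more than 4-fold between mice without following the order. Lhcgr, the luteinizing hormone receptor, had 8.68, 10.5, 4.801, 6.97 and 4.56 CPM.

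The falling genes with the steepest slopes were led by Shisa8, with 16.3, 12.0, 4.76, 4.50 and 1.72 CPM and a slope of -0.64 ± 0.12 log2 CPM per score unit (SE, n = 5 mice). Bcan, a proteoglycan, had 18.7, 18.7, 8.16, 7.08 and 2.55 CPM. Dlk1, a secreted and membrane ligand related to Notch ligands, had 47.5, 35.8, 14.6, 13.6 and 8.03 CPM. These 3 had their largest step between WT3 and WT4 or between WT2 and WT1. H2-Q10, BC034090, Tbc1d30, Pdlim4, Nedd9 and Adamts9 had slopes from -0.53 to -0.37. Over all 345 falling genes, 138 (40.0%) took their largest step between WT3 and WT4 and 162 (47.0%) between WT2 and WT1.

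The X chromosome, which is silenced in pachytene spermatocytes by meiotic sex chromosome inactivation, held a larger share of falling genes than any autosome. It carried 75 of the 345 falling genes (21.7%) but 3.88% of the counted genes. Of 568 counted X-linked genes, 13.2% were falling, compared with 1.92% of 13962 autosomal genes, and 7.39% were rising, compared with 7.37%. Without genes below 1 CPM in each of WT5, WT3 and WT4, which could pass the filter only through WT2 and WT1, 13 of 525 X-linked genes (2.48%) were rising, compared with 6.58% of autosomal genes, and 14.3% were falling, compared with 1.97%. Constant X-linked genes were rare, at 1.41%. The share of all counts on the X was 2.38%, 2.33%, 1.54%, 1.54% and 1.31%. It thus dropped between WT3 and WT4 and again between WT2 and WT1. The 75 falling X-linked genes had median CPM values of 25.9, 24.5, 17.6, 15.9 and 11. The 42 rising X-linked genes had medians of 0.103, 0.311, 0.554, 3.98 and 9.95 CPM, and 37 of them took their largest step between WT4 and WT2. Of the 42, 29 were below 1 CPM in each of the first 3 mice, so a late step was largely set by the filter for them, and 9 of the other 13 also took their largest step there. They included Akap4 and, picked after their values were seen, Cypt1, with 0.138, 0.590, 0.849, 7.68 and 29.1 CPM, Cylc1, a cytoskeletal protein of the sperm head, with 0.103, 0.466, 1.40, 6.90 and 20.6 CPM, and Tex13a, with 0.0345, 0.155, 0.406, 4.46 and 16.3 CPM.

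**Figure D4:**
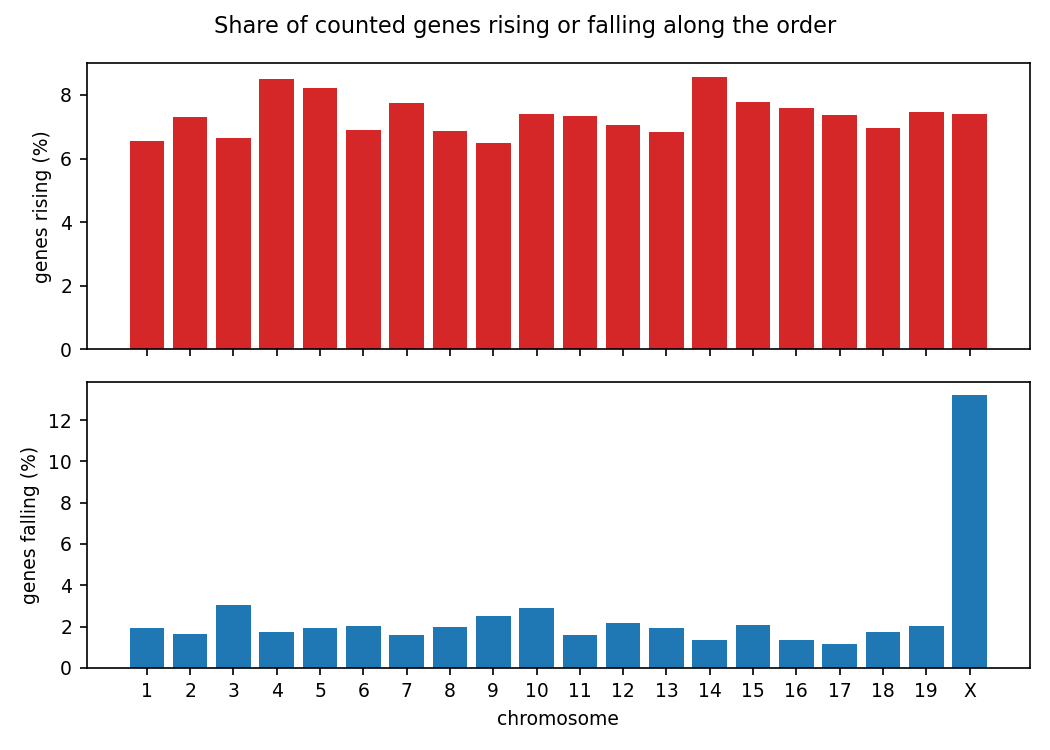
Share of the counted genes of each chromosome (x axis) that were rising (top, %) or falling (bottom, %) along the order. The X stands at 13.2% falling, above every autosome, while its 7.39% of rising genes, 29 of 42 of which passed the filter only through WT2 and WT1, comes to 2.48% without such genes.

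Many X-linked housekeeping genes have an autosomal copy that is used in germ cells, and 18 such somatic and germ cell pairs (10 with an X-linked somatic form) were compared. The germ cell form was higher in WT1 than in WT5 in 17 of 18 pairs, with Slc25a31 as the exception. Over all, 6767 of the 14643 counted genes were higher. The somatic form was lower in 14 of 18, Gapdh included, and 53.8% of all counted genes were lower. Of the 10 X-linked somatic forms 9 were lower, where only 105 of 568 counted X-linked genes were higher. Pgk2, the germ cell phosphoglycerate kinase, was rising with 56.8, 73.9, 200, 246 and 360 CPM, whereas X-linked Pgk1 had 3.38, 2.48, 1.37, 2.02 and 1.87 CPM. Per length, the level of Pgk2 was 18.9 times that of Pgk1 in WT5 and 217 times in WT1. Hspa2, the germ cell HSP70, had 995, 972, 1710.5, 1801 and 1879 CPM, and its partner Hspa8 was falling with 193, 152, 150, 118 and 85.1 CPM. Gapdhs, the sperm glycolytic enzyme, had 1.34, 3.79, 3.36, 25.7 and 94.6 CPM. The pair of Ldhc and Ldha did not separate in this way. Ldha was rising with 329, 337, 692, 708 and 816 CPM, and the log2 difference between the genes stayed between 1.96 and 2.06 in all mice. Reads with more than 1 place in the genome were discarded by the authors, so counts of genes with near-identical copies such as Pgk1, Rpl10 and Gapdh, which was not counted at all, are uncertain.

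Few of the usual reference genes were constant. Of 19 counted, 2 were constant (Eef1a1 and Sdha), a share near the 8.22% of all counted genes. In WT1, 15 were lower than in WT5, against 53.8% of all counted genes, with a median difference of -0.51 log2 units. Hprt, an X-linked reference gene, was falling with 63.9, 59.3, 46.7, 43.2 and 29.95 CPM, and Actb had 662, 537, 511, 542 and 440 CPM. Tbp went the other way, with 119, 126, 210, 195 and 212 CPM. The 5 most abundant constant genes were Eif4g2, a translation factor, at 1242 to 1434 CPM, Wnk1, a kinase, at 1035 to 1226 CPM, Eef1a1 at 957 to 1087 CPM, Ddb1, a DNA damage binding protein, at 860 to 990 CPM, and Hnrnpu, a nuclear matrix protein, at 848 to 956 CPM. With total counts as library sizes the median difference of all genes between WT1 and WT5 moved from -0.08 to -0.27 log2 units, and levels that fall by about that much are relative to the scaling.

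Transcripts known from tissue next to the testis were present in some libraries and were highest in WT1. Of 20 epididymal genes, listed after the data were seen, 18 were counted and all 18 were highest in WT1, among them Cst8, which spermatids also make. Over all, 6767 of the 14643 counted genes were higher in WT1 than in WT5. Rnase9, Spag11b, Lcn5, Lcn8, Defb20, Teddm1a and Spint4 were below 1 CPM in each of WT5, WT3 and WT4. They passed the filter only through WT2 and WT1, so their late place was largely set by it. The summed level of the 18 genes was 25.7, 30.2, 241, 130 and 1332 CPM, or 0.133% of the counts of WT1. Crisp1, the main secreted protein of the epididymis, had 4.86, 3.39, 71.9, 16.1 and 267 CPM. Gpx5, an epididymal glutathione peroxidase, had 0, 1.24, 0.148, 13.9 and 184 CPM. Thus WT4 held more Crisp1 than WT2, and WT2 more Gpx5 than WT4. For Crisp1 this is opposite to the 8 score genes, which were all lower in WT4 than in WT2. In WT4, 6 of the 18 epididymal genes were above both neighbours in the order and 9 were below both, so the list did not move as a block there. Of the 18 genes 3 met the rule for rising genes, against 7.4% of all counted genes. These were Adam7 (0.241, 0.932, 4.801, 8.74 and 82.4 CPM), Rnase9 and Rnase10. The 8 adipose genes, also listed after the data were seen, summed to 44.9, 36.7, 13.6, 79.2 and 186 CPM, and none was rising. In a shorter list of 6 epididymal and other genes, all 6 were higher in WT1 than in WT5, with a median difference of 5.61 log2 units when genes with no read in WT5 were set at its floor. Most blood transcripts did not follow the order, with Hbb-bs, a beta globin, at 39.0, 46.4, 78.3, 53.9 and 22.1 CPM. Alas2, with the highest slope among the blood genes, had 2.86, 3.39, 5.10, 5.03 and 8.72 CPM and was not called. The part of this RNA in the 163 rising and 162 falling genes that moved most between WT2 and WT1 was not tested. Without WT1, 849 genes were rising over the other 4 mice and 820 of the 1084 were among them, whereas 97 were falling and 53 of the 345 were among those. Without WT4, 2066 genes were rising and 663 falling, all 1084 and 345 included. The rule makes that inclusion almost certain for a mouse in the middle of the order. It therefore does not show whether the calls depend on WT4.

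**Figure D5:**
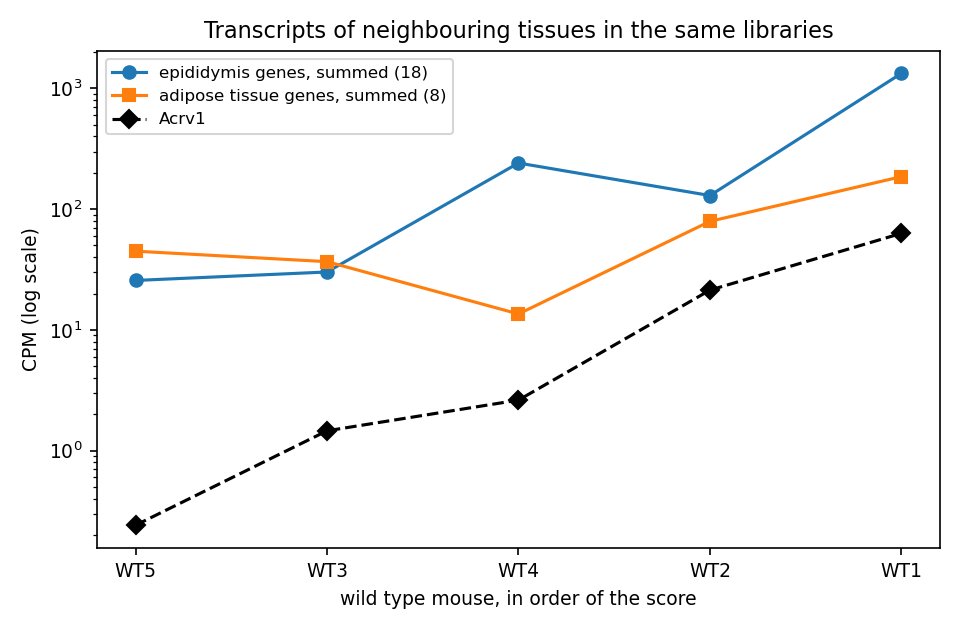
Summed CPM (log axis) of 18 epididymal and 8 adipose genes in each wild type mouse, in order of the score, with Acrv1 of the acrosome as a dashed line. The epididymal sum is highest in WT1 (1332 CPM) and second in WT4 (241 CPM). In WT4, 6 of the 18 epididymal genes were above both neighbours and 9 below both. The adipose sum is lowest in WT4 (13.6 CPM), and Acrv1 climbs at every step.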

How the data were processed

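Total RNA of decapsulated testes was made into Illumina TruSeq libraries. The authors mapped single reads to GRCm38, discarded reads with more than 1 place, and counted reads per gene, and the deposited table holds raw counts, without normalization. The submitters' processing notes name CASAVA 1.8.2, STAR 2.4 and featureCounts 1.4.6. The labels do not say whether the mice were littermates. The 5 wild type columns were scaled together by TMM (edgeR 4.0.16 in R 4.3.3), and log2 CPM had a prior count of 2. DESeq2 1.42.0 gave size factors for an alternative only. Slopes are least squares of log2 CPM on the score. Intervals of folds are exact 95% intervals and, like the floor of 3 counts per library, cover counting error only. The rules for rising and falling genes were tried on simulated counts with planted slopes along the measured score. The order itself and the rule for constant genes were not tried in this way. Named genes are the score genes, the 10 steepest rising and falling genes with a mean of at least 5 CPM, the 5 most abundant constant genes, the extreme and most abundant members of each list, gene pairs, the Rfx genes, and all haploid regulators, kinases and late chromatin genes. Of the genes this rule gives, 1 is not reported here. The members, lists and rules were chosen with earlier results of these data known. No test between groups was run. Figures were drawn with matplotlib 3.10.9.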

Additional observations from a re-analysis of the deposited data

Results flagged for a closer look

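Of 188 values over the 5 mice, 4 had a mouse far from the others, where chance flags about 1 in 20. Each value was of a named gene, a list median or a library measure such as the total count. Cdh1, an epithelial cadherin listed here for undifferentiated spermatogonia, stood at 3.765 log2 CPM in WT1 and between 1.671 and 1.961 in the other mice. WT1 was also the library with the most epididymal RNA, and the part of that RNA in this value was not tested. Tssk6 stood at 2.105 in WT1 and between -0.1817 and 0.2225 elsewhere. The median of the undifferentiated spermatogonia list was 3.765 in WT1 and 4.068 to 4.188 elsewhere, and in WT1 that median is the value of Cdh1 itself, the middle gene of the 13, so it is not a separate observation. Vwf, an endothelial gene, stood at 2.146 in WT4 and between 3.116 and 3.354 in the other mice, as did most endothelial genes with their lowest value in WT4.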

How the results depend on the processing

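The order of the mice was the same under every alternative tried. The alternative scores used only acrosome, sperm surface and axoneme genes. The median of the late spermatid chromatin genes was lower in WT4 than in WT3, at -1.78 against -0.90 log2 CPM. No score from those genes was tried. In WT4, 81 genes were at least 2-fold below both neighbours in the order and 29 at least 2-fold above both. With total counts as library sizes 597 genes were falling. With at most 1 step against the direction 2281 genes were rising and 759 falling, and with at least 2 log2 units 582 and 6. Slopes in place of steps gave 6 falling genes, and a range of at most 0.5 gave 4960 constant genes. The score span was 1.83 with axoneme genes and, with scores added after seeing the data, 6.98 with Acrv1, Spaca3, Izumo1 and Catsper3 and 1.93 with Zpbp, Zpbp2 and Acr. Without genes below 1 CPM in each of WT5, WT3 and WT4, also chosen after seeing the data, 922 genes were rising and 345 falling, and the rising share of X-linked genes moved from 7.39% to 2.48%. Leaving out each mouse in turn gave 849 (without WT1) to 2066 (without WT4) rising, 97 (without WT1) to 663 (without WT4) falling and 1426 to 2371 constant genes and a span of 3.48 to 4.71. Without WT2, 1706 genes were rising and 622 falling. No gene changed from rising to falling or back, which could hardly occur with the order unchanged and is no check of the calls. Of 1530 slopes of 153 named genes under the alternatives, 117 moved by more than 1 SE, and no rising or falling gene changed sign. The median slope of the synaptonemal list, -0.02, was 0.07 without WT1. Ribosomal protein genes (10 of 71 constant, against 8.22% of all counted genes) had a median slope of -0.03, and 0.0015 without WT1. No paired analysis was possible because no groups were compared. With 5 mice, each step rests on 2 libraries, and levels under 0.0932 CPM are under 3 counts in every library.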
